A study of Mus musculus with 6 samples.

Results

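The ribosome stalling and quality control genes examined here were 10 genes chosen by name because their products rescue stalled ribosomes or destroy the unfinished proteins left on them, out of 54532 genes in the count table. All 10 were found: Pelo, Hbs1l, Gtpbp1, Gtpbp2, Zfp598, Ascc3, Ltn1, Nemf and Ankzf1 under these symbols, and Gcn1 under its older symbol Gcn1l1. Their RNA was measured in leptotene and zygotene (L/Z) spermatocytes, the germ cells of early meiotic prophase, which were isolated from testes of 12 dpp (days postpartum) mice by cell sorting. The study had 3 control libraries and 3 Eef1g-cKO libraries. Eef1g encodes a subunit of the elongation factor complex that delivers aminoacyl-tRNA to the ribosome. In the Eef1g-cKO males an internal run of Eef1g exons, flanked by loxP sites on a C57BL/6J background, is deleted by Stra8-GFPCre, a recombinase that acts in male germ cells from differentiating spermatogonia onward. The controls were littermates, given as wild type in the labels. Whether each library came from a separate animal is not given, so the p-values measure the spread between these libraries.

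A ribosome that halts on an mRNA is soon struck by the one behind it. The ubiquitin ligase ZNF598 (gene Zfp598) recognises such collisions and marks the small subunit. A helicase complex built on ASCC3 then pulls the leading ribosome apart, while GCN1 binds the collided pair and passes a stress signal to the kinase GCN2. Pelota (Pelo) and its GTPase partner HBS1L open ribosomes whose A site is empty, and GTPBP1 and GTPBP2 are related GTPases that relieve pausing. The freed large subunit still holds a peptidyl-tRNA. NEMF binds it and recruits the ubiquitin ligase listerin (Ltn1), and ANKZF1 releases the chain for degradation. Mutant listerin, and loss of GTPBP2 in mice with a brain-specific tRNA defect, cause neurodegeneration. All of these factors act once elongation has halted.

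Nemf and Ascc3 were the members called higher in Eef1g-cKO L/Z spermatocytes, and no tested member was called lower. Nemf was 1.85-fold higher (95% confidence interval 1.38 to 2.48) and Ascc3 1.6-fold higher (1.2 to 2.15). Nemf was called in all 19 alternative fits, whereas the call of Ascc3 was lost in 11, including those without any 1 control library, which left 1 member called. Of the 10 members, 8 had enough reads to be tested, and Pelo and Gcn1 did not. The 2 calls among 8 tested members stand beside 7.8% of all 8513 tested genes called higher and 6.01% called lower at an adjusted p under 0.05 in edgeR's quasi-likelihood test. No member also passed an absolute log2 fold change over 1, a limit that 3.42% of tested genes passed upward and 4.96% downward. The median log2 fold change of the 8 tested members was -0.05, equal to that of all tested genes, and 4 of them lay above 0 and 4 below. These 8 are the members with enough reads, not the whole set.

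The promoters of Nemf and Ascc3, the pair that rose, are shown so that their make-up can be compared. They are the 250 bases before each transcription start in RefSeq (GRCm38.p6), where all 10 members were matched. The Nemf gene spans chr12:69310522-69357165 and the Ascc3 gene chr10:50592669-50851485. The Nemf window is chr12:69357177-69357426 on the minus strand, and the capitals mark the letters CCAAT read on the opposite strand. The Ascc3 window is chr10:50592419-50592668 on the plus strand, and the capitals mark GGGCGG and TGACG, which do not overlap each other.
Nemf: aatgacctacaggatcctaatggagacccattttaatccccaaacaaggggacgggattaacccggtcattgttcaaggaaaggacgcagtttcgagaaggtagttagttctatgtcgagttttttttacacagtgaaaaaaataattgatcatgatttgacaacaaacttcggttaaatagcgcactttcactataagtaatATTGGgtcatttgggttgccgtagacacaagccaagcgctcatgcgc
Ascc3: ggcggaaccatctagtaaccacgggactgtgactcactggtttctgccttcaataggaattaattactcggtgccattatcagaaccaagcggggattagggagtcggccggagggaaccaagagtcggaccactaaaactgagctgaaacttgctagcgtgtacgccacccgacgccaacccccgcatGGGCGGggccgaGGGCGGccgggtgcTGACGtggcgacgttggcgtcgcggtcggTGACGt
The windows differed in base composition, with 41.2% GC upstream of Nemf and 60% upstream of Ascc3. Both strands were searched for 7 motifs, and no motif was found in both windows. CCAAT, the box bound by NF-Y, occurred once in the Nemf window, and 33.8% of 32851 promoter windows of that length hold it. The Ascc3 window held 2 copies of GGGCGG, a GC box present in 32.7% of windows, and 2 copies of TGACG, the core of the cAMP response element, present in 17.8%. These motifs were not particular to the pair. CCAAT was also in the Ankzf1, Gtpbp1 and Ltn1 windows, and GGGCGG in those of Gcn1, Gtpbp1, Hbs1l and Zfp598. TGACG was also in the windows of Gtpbp2, Hbs1l, Ltn1, Pelo and Zfp598. TGATGNAA, the composite element bound by ATF4 and its partners, was in none of the 10 member windows and in 3.45% of all windows. The remaining motifs were CCGGAA (12% of windows), found in the Gcn1 window, the NRF1 site (3.74%), found in the Pelo window, and CACGTG (6.02%), found in no member window. These matches are letters in a window and not evidence of binding.

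Depth limited what could be said of the lowest members. Library totals ran from 763133 to 2617648 reads, and Eef1g-cKO replicate 3 was the shallowest. A gene with 3 reads, taken as the detection floor, would reach between 1.18 and 4.63 CPM, where CPM is the reads of a gene per 1000000 reads of the TMM-scaled library. PCR copies could not be removed, so the floor covers counting error only. Eef1g itself, counted over exons that include undeleted ones, had 222, 226 and 212 CPM in controls and 139, 151 and 119 CPM in Eef1g-cKO libraries. It was lower in every Eef1g-cKO library, and its log2 fold change was -0.68 with SE 0.20 (edgeR adjusted p = 0.029). This call was lost in 10 of 19 alternative fits, among them those without any 1 control library (adjusted p = 0.11, 0.121 and 0.0919 without replicate 1, 2 and 3) or without Eef1g-cKO replicate 1 (0.0837), while the log2 fold change stayed between -0.86 and -0.43. The summed CPM of 8 L/Z markers was 8020 to 8750 in controls and 16100 to 20800 in Eef1g-cKO, where 4 of the 8 were called higher and 1 lower. The summed CPM of 8 spermatogonial markers was 1490 to 1670 in controls and 673 to 827 in Eef1g-cKO, with all 5 tested markers called lower. Among somatic cells of the testis, 7 Sertoli cell genes summed to 81.7 to 295 CPM in controls against 1.54 to 46.1 in Eef1g-cKO (2 of 4 tested called lower), and 6 peritubular and stromal genes to 161 to 294 against 18.5 to 73.7 (3 of 4 tested called lower). Pachytene and later germ cell markers summed to 24.1 to 43.1 CPM against 3.09 to 18.4, with Acrv1 at 0 in every library. Leydig cell markers summed to 8.4 to 10.7 against 1.57 to 6.47, with Cyp17a1 and Hsd3b1 at 0. Blood and macrophage markers overlapped (6.72 to 74.8 against 3.23 to 75.7), with Cd68 and Csf1r at 0. The part of these shifts in the members' results was not tested, and in such bulk libraries fewer cells of a type and less RNA per cell cannot be told apart.

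**Figure D1:**
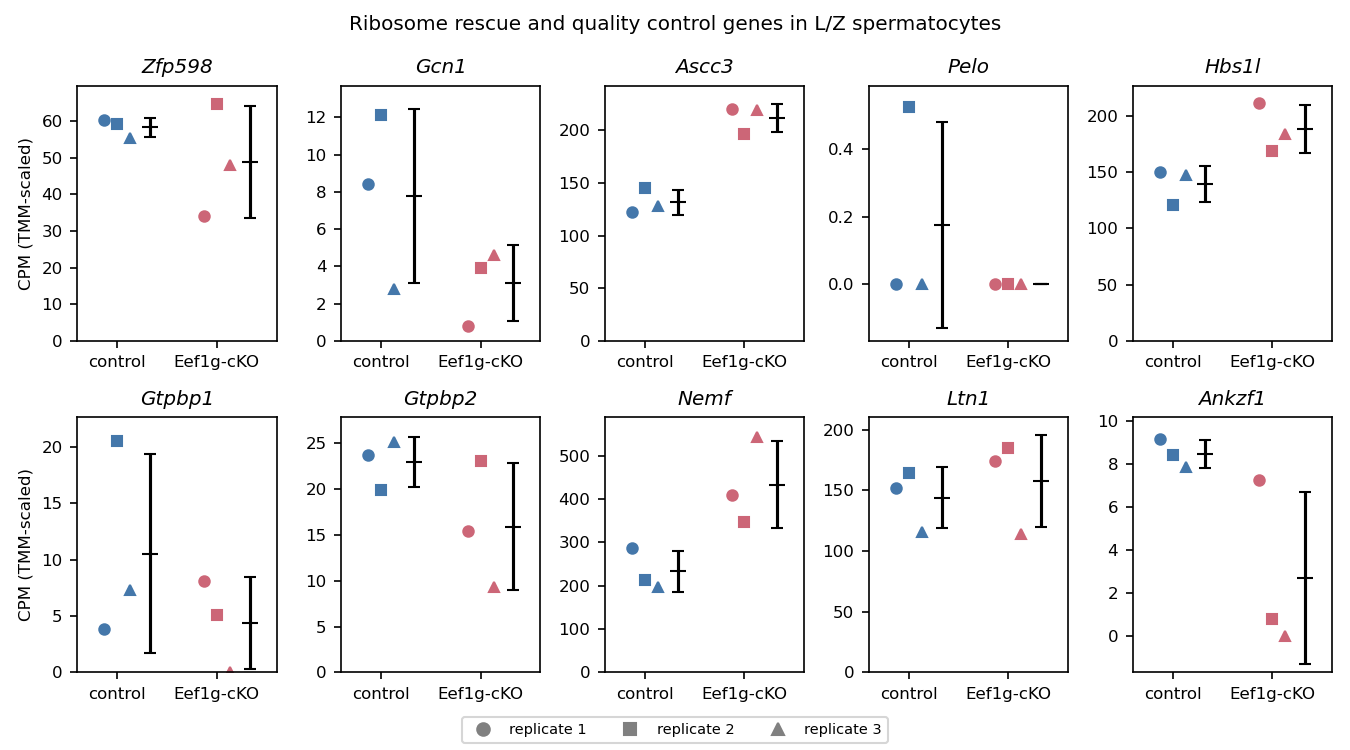
CPM of each of the 10 members in each library (y axes start at or just below 0 and differ between panels). Symbols give the replicate, and the black bar the mean and SD of 3 libraries. Nemf, Ascc3 and Hbs1l were higher in all Eef1g-cKO libraries than in any control, and Pelo had a single read in all.

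Among the collision genes, Zfp598, the ligase that senses collided ribosomes, did not pass the test. It had 60.3, 59.3 and 55.4 CPM in controls and 34, 64.7 and 47.9 CPM in Eef1g-cKO. The control libraries were close together, whereas the Eef1g-cKO libraries lay on both sides of them. The log2 fold change was -0.24 with a 95% interval of -0.93 to 0.45 (edgeR adjusted p = 0.69).

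Ascc3, the helicase that separates the collided ribosomes, had 122, 145 and 128 CPM in controls and 220, 196 and 219 CPM in Eef1g-cKO. All Eef1g-cKO libraries were above all controls, and the spread within each genotype was small. The log2 fold change was 0.68 (SE 0.20, edgeR adjusted p = 0.0298), larger than that of 85.6% of tested genes. This call was close to the threshold: the log2 fold change stayed above 0 in all 19 alternative fits (0.49 to 0.76), but 11 of them gave an adjusted p of 0.05 or more. It was lost without any 1 control library (adjusted p = 0.118, 0.0722 and 0.121 without replicate 1, 2 and 3) and without Eef1g-cKO replicate 1 (0.0773). It was also lost with a GC content offset (log2 fold change 0.50, adjusted p = 0.119) and when library totals alone set the scale (0.49, adjusted p = 0.128).

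GCN1 sits on collided ribosomes and activates GCN2, and its mRNA was scarce in these libraries. It had 11, 23 and 5 reads in controls and 1, 10 and 3 reads in Eef1g-cKO, or 8.4, 12.1 and 2.8 CPM against 0.809, 3.92 and 4.63. The genotypes overlapped. An exact two-sided permutation test of the CPM gave p = 0.3, where 0.1 is the smallest p that 3 against 3 libraries allow.

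Among the rescue factors, Hbs1l was abundant whereas its partner Pelo was almost undetected. Hbs1l, the GTPase that loads pelota onto stalled ribosomes, had 150, 121 and 147 CPM in controls and 211, 169 and 184 CPM in Eef1g-cKO. The Eef1g-cKO values were all above the controls, but the difference missed the threshold. The log2 fold change was 0.43 (95% interval -0.01 to 0.87, edgeR adjusted p = 0.186), and none of 19 alternative fits called it. Counting Nemf, Ascc3 and Hbs1l, 3 of 8 tested members had no overlap upward and 1, Ankzf1, had none downward, against 16.4% and 18.1% of all tested genes.

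Pelo had 1 read in control replicate 2 and 0 in the other libraries, which is at or under the floor in both genotypes, so no fold change was computed. The Pelo gene model overlaps other genes. Pelo spans chr13:115088355-115090186 on the minus strand inside the Itga1 gene, and 67.1% of its 1600 exon bases are shared with exons of other genes. Exon 2, with 607 bases, shares 606 of them, and exon 1 shares 468 of its 993. Gm49395 covers 739 Pelo exon bases on the same strand and had 2 reads in all libraries. Gm10734 covers 468 on the opposite strand and had 8 reads. How reads lying in more than 1 gene were counted is not given, and the part of this overlap in the low count was not tested.

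GTPBP1 and GTPBP2 are paralogous GTPases, and both were low here. Gtpbp2 had 23.7, 19.9 and 25.2 CPM in controls and 15.4, 23.1 and 9.27 CPM in Eef1g-cKO. Gtpbp1 had 3.82, 20.5 and 7.28 CPM in controls and 8.09, 5.1 and 0 CPM in Eef1g-cKO. The zero came from replicate 3, the shallowest library, where the floor of 3 reads was 4.63 CPM. Both genes overlapped between genotypes, with log2 fold changes of -0.47 (95% interval -1.55 to 0.61, edgeR adjusted p = 0.604) and -1.14 (-3.06 to 0.78, adjusted p = 0.454). The intervals of both genes overlapped those of Nemf (0.47 to 1.31) and Ascc3 (0.26 to 1.1).

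Among the genes for degradation of the nascent chain, the sensor Nemf rose, whereas the ligase Ltn1 did not pass the test. Nemf had 287, 214 and 198 CPM in controls and 410, 347 and 542 CPM in Eef1g-cKO. The lowest Eef1g-cKO library was above the highest control. The log2 fold change was 0.89 (SE 0.20, edgeR adjusted p = 0.00611), larger than that of 91.7% of tested genes, and all 19 alternative fits called it (0.68 to 1.08). Nemf shares 166 of 10549 exon bases with Klhdc2 on the opposite strand. Klhdc2 had 725 reads in all libraries against 2879 for Nemf, and whether the counting used strand is not given.

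Listerin, the ligase that NEMF recruits, is encoded by Ltn1. It had 152, 164 and 116 CPM in controls and 174, 185 and 114 CPM in Eef1g-cKO. The genotypes overlapped, and the log2 fold change was 0.14 (95% interval -0.35 to 0.64, edgeR adjusted p = 0.743). Its interval overlapped that of Nemf (0.47 to 1.31).

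Ankzf1, which frees the ubiquitinated chain from the large subunit, was near the floor. It had 12, 16 and 14 reads in controls and 9, 2 and 0 reads in Eef1g-cKO, or 9.16, 8.4 and 7.84 CPM against 7.28, 0.784 and 0. Each Eef1g-cKO library was below each control, 2 of them at or under the floor. The log2 fold change of -1.59 had a 95% interval of -3.73 to 0.55 (edgeR adjusted p = 0.334), and leaving out single libraries moved it between -3.68 and -0.99 without a call.

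**Figure D2:**
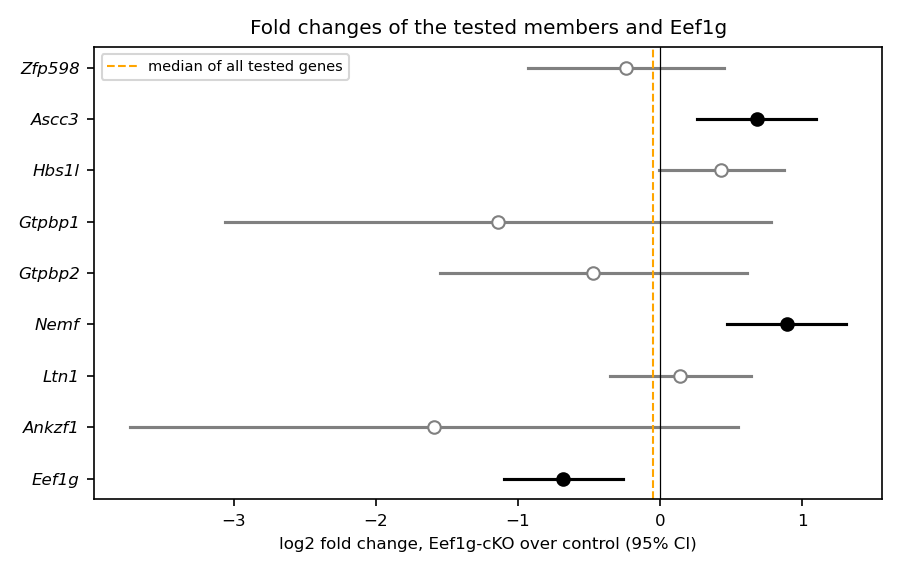
Log2 fold change (Eef1g-cKO over control, x axis) of the 8 tested members and Eef1g, with 95% confidence intervals from the edgeR fit. Filled points passed an adjusted p under 0.05, and the dashed line is the median of all tested genes (-0.05). Nemf at 0.89 and Ascc3 at 0.68 lie above 0, and Eef1g at -0.68 below.

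Genes that act as partners were also compared within each library, since a ratio of reads in 1 library does not depend on the scaling between libraries. Nemf over Ltn1 was 1.89, 1.3 and 1.7 in controls and 2.35, 1.88 and 4.72 in Eef1g-cKO. The genotypes overlapped by a small margin, and the log2 ratio was higher by 0.77 (0.69 ± 0.28 against 1.46 ± 0.69, SD, n = 3, exact permutation p = 0.2, adjusted over 3 ratios p = 0.3). Without Eef1g-cKO replicate 3 this difference was 0.38. Ascc3 over Zfp598 was 2.02, 2.44 and 2.3 in controls and 6.41, 3.02 and 4.52 in Eef1g-cKO. All Eef1g-cKO ratios were above the controls, and the log2 ratio was higher by 0.98 (1.17 ± 0.14 against 2.15 ± 0.54, SD, n = 3, exact permutation p = 0.1, adjusted p = 0.3). This ratio was not corrected for GC content, which is 42.1% for the longest Ascc3 transcript and 59.4% for that of Zfp598. With a GC content offset the log2 fold changes were 0.50 for Ascc3 and 0.24 for Zfp598, and so lay closer together. Gtpbp2 over Gtpbp1 was widely scattered, with log2 ratios from -0.04 to 2.52 in controls and from 0.89 to 3.70 in Eef1g-cKO (difference 0.83, exact permutation p = 0.5, adjusted p = 0.5). Without control replicate 2 or Eef1g-cKO replicate 3 that difference was 0.11, and adding 0.1 or 1 to the counts in place of 0.5 made it 1.56 or 0.56. With 3 libraries a genotype the exact test could not give less than p = 0.1, so no ratio could pass.

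The order of the members' levels in control cells changed little with the length by which reads were divided. Only Gtpbp1 and Ankzf1 changed places. The level, in CPM per kilobase of the deposited gene length, was 23 ± 2.65 for Hbs1l, 22.1 ± 4.5 for Nemf, 18.4 ± 3.17 for Ltn1 and 17.8 ± 0.786 for Zfp598 (SD, n = 3). By this length the control libraries of each of these genes overlapped those of the next in the order. Every control library of Hbs1l and of Nemf lay above every one of Zfp598. Ascc3 followed at 7.88 ± 0.712, below every control library of the genes above it, and then Gtpbp2 at 4.32 ± 0.508. The lowest levels were those of Gtpbp1 (2.63 ± 2.2), Ankzf1 (1.65 ± 0.129), Gcn1 (0.435 ± 0.262) and Pelo (0.109 ± 0.189). The control libraries of Gtpbp1 overlapped those of both Gtpbp2 and Ankzf1, and those of Gcn1 overlapped those of Pelo. In Eef1g-cKO cells Nemf led with 41 ± 9.46 CPM per kilobase, with Hbs1l next at 31.1 ± 3.5 and overlapping it, followed by Ltn1 (20.1 ± 4.83), Zfp598 (14.9 ± 4.68) and Ascc3 (12.7 ± 0.83). The deposited length covers all exons of a gene, 16685 bases for Ascc3 against 7760 in its longest transcript. Per kilobase of the longest transcript, the mean control levels were 49.8 for Hbs1l and 49.2 for Nemf, well above Ltn1 at 18.6, Zfp598 at 17.4 and Ascc3 at 17. In Eef1g-cKO they were 91.5 for Nemf, 67.3 for Hbs1l, 27.3 for Ascc3, 20.4 for Ltn1 and 14.6 for Zfp598, which placed Ascc3 above Ltn1 and Zfp598 and not below them. Leaving out control replicate 2 kept 6 of the 10 members in their control place. The summed level of all 10 members, as CPM, was 688 to 816 in controls and 994 to 1120 in Eef1g-cKO, most of it from Nemf, Ascc3, Hbs1l and Ltn1.

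The other genes of these pathways, a list of 45, showed no call in either direction in edgeR's test. Of these, 38 could be tested, with 15 log2 fold changes above 0 and 22 below after rounding. That of Ufsp2, named after its value was seen, rounded to 0 (fold change 0.997). The median was -0.10 beside -0.05 over all tested genes, and the range was from -1.61 to 0.51. Before adjustment 0 lay above and 6 below at p under 0.05, where 14.3% and 13.2% of all tested genes passed, and DESeq2 also called none after adjustment. In contrast, limma-voom called Trip4 and Ufc1 lower, and edgeR called Rack1 and Trip4 lower when at least 10 reads were required per library. Those 6 were named after their values were seen. They included the recycling factor Mcts1 (log2 fold change -1.61, edgeR adjusted p = 0.0936), the termination factor Gspt2 (-1.23, adjusted p = 0.176) and Trip4 (-0.91, adjusted p = 0.0939). The others were the chaperone Bag6 (-1.40, adjusted p = 0.116), the UFM1 transfer enzyme Ufc1 (-0.99, adjusted p = 0.145) and the ribosomal collision adaptor Rack1 (-0.39, adjusted p = 0.154). Gspt2 is an intronless copy of Gspt1, so the split of reads between them is uncertain. Genes too low to test included Map3k20, Impact, Rnf25, Usp10, Otud3 and Eif2d.

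Trip4, Ascc1 and Ascc2 encode partners of ASCC3, and none of them rose with Ascc3. Ascc1 and Ascc2 were named after their values were seen. The log2 fold changes of Trip4, Ascc1 and Ascc2 were -0.91 (95% interval -1.64 to -0.17), -1.15 (-2.94 to 0.64) and -0.77 (-2.09 to 0.55). Ascc1 and Ascc2 had few reads. Ascc1 had 14, 22 and 17 in controls and 5, 21 and 0 in Eef1g-cKO. Ascc2 had 29, 44 and 21 in controls and 22, 28 and 2 in Eef1g-cKO. Trip4 had 92.4, 71.9 and 69.4 CPM in controls and 28.3, 62.3 and 29.3 CPM in Eef1g-cKO. The libraries of the genotypes did not overlap for Trip4, yet it was not called at an adjusted p under 0.05. The interval for Trip4 and that for Ascc3 (0.26 to 1.10) did not overlap, and their difference was not tested. For Nemf, the partners in chain extraction and degradation with the most reads were Vcp and Rchy1, named after their values were seen. The log2 fold change was 0.26 for Vcp (edgeR adjusted p = 0.375) and 0.07 for Rchy1 (adjusted p = 0.89). Neither passed the test. The remaining steps had medians from -0.14 (decay of the stalled mRNA, 5 tested) to 0.16 (small subunit ubiquitination, 3 tested).

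**Figure D3:**
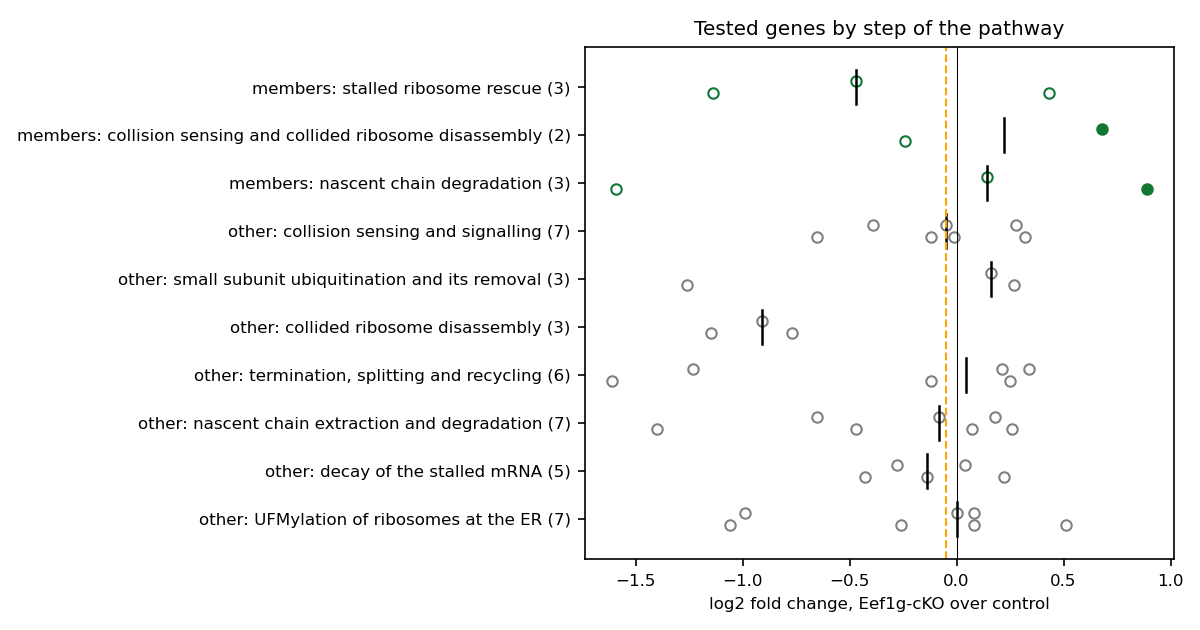
Log2 fold change (Eef1g-cKO over control, x axis) of tested members (green) and of 38 other genes of the same pathways (grey), one row for each step with the number of genes in brackets. Filled points passed an adjusted p under 0.05, black ticks are medians and the dashed line is the median of all tested genes. The 2 filled points are Ascc3 and Nemf.

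The members that lay above 0 had transcripts poorer in GC than those that lay below. GC content of the longest transcript was 42.1% for Ascc3, 42.4% for Nemf, 42.6% for Ltn1 and 48.2% for Hbs1l. It was 53.8% for Ankzf1, 56% for Gtpbp2, 56.5% for Gtpbp1 and 59.4% for Zfp598. The same ordering ran through the whole table. The median log2 fold change was 0.23 in the 2127 tested genes lowest in GC (25.6% to 43.9%) and -0.36 in the 2126 highest in GC (52.5% to 73.7%). With a smooth GC trend taken out of each library, the log2 fold change of Nemf was 0.72 (edgeR adjusted p = 0.0349) and that of Ascc3 0.50 (adjusted p = 0.119). Under that offset Zfp598 moved to 0.24 and Ltn1 to -0.03, neither called. The scale between libraries also bore on these directions. Of all calls 56.5% were upward as reported, 42% with upper-quartile scaling and 34.1% with library totals alone, where the median of all tested genes stood at -0.17 and -0.24. Nemf was called under both (0.76 and 0.68), and Ascc3 under neither (0.56 and 0.49).

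**Figure D4:**
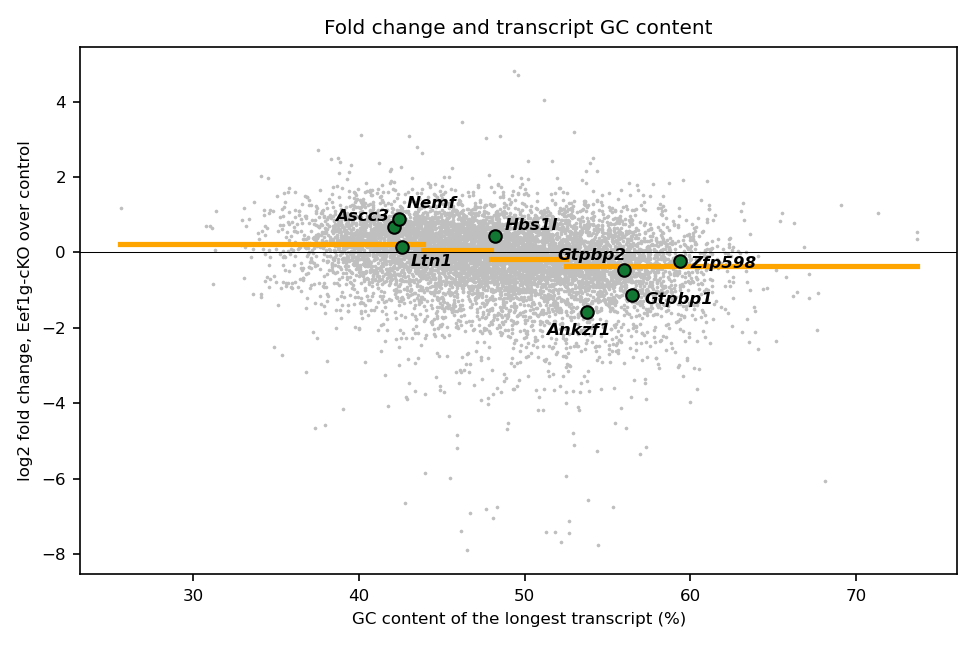
Log2 fold change (Eef1g-cKO over control, y axis) against GC content of the longest transcript (x axis, percent) for 8508 tested genes (grey) and the 8 tested members (green). Orange bars are medians of 4 equal bins of genes by GC content, from 0.23 to -0.36. The 4 members above 0 lie at 48.2% GC or less and the 4 below 0 at 53.8% or more.

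**Figure D5:**
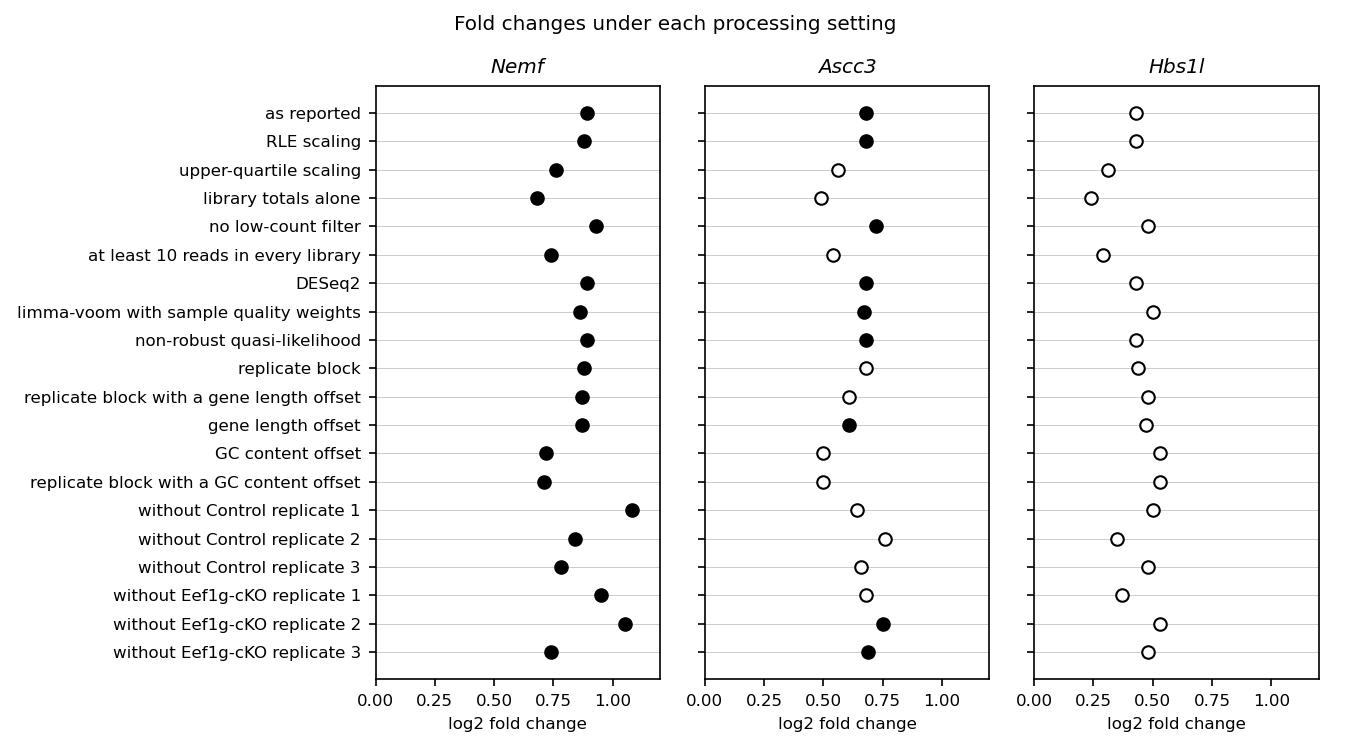
Log2 fold change (x axis) of Nemf, Ascc3 and Hbs1l as reported and in each of 19 alternative fits (rows). Filled points passed an adjusted p under 0.05: Nemf in all, Ascc3 in 8 of the 19 and Hbs1l in none.

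The genes whose log2 CPM followed Nemf most closely over the 6 libraries were Ccar1 (Pearson r = 0.995), R3hdm2 (r = 0.992) and Cd2ap (r = 0.989). Those closest to Ascc3 were Gm14681 (r = 0.994), Smc1b (r = 0.992) and Ltv1 (r = 0.991). The 6 values behind each r share libraries and depth, and the genotypes differ in level, so the r describes likeness only. All of these genes had positive log2 fold changes, from 0.57 for Gm14681 to 1.57 for Smc1b, a meiotic cohesin subunit.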

How the data were processed

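Polyadenylated RNA of sorted L/Z spermatocytes was amplified as full-length cDNA and sequenced as 150 bp paired-end reads without molecular identifiers. The authors trimmed reads with fastp, aligned them to GRCm38 with HISAT2 2.2.1 and counted them with featureCounts 2.0.6, and deposited raw read counts for each gene. Strand use and the handling of reads with several alignments or several genes are not given in the sources used here. Groups and replicate numbers came from the sample titles.

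Genes were kept with filterByExpr in edgeR 4.0.16 (minimum count 10, minimum total 15), which left 8513 genes holding 98.1% of reads. After TMM scaling, edgeR's robust quasi-likelihood test was run with genotype as the only term and Benjamini-Hochberg adjustment over all tested genes. The test was checked on simulated counts. The members and lists were chosen with earlier results of these data known. Text names Eef1g, the 10 members, other pathway genes past an adjusted p under 0.05 or too low to test, genes overlapping a member, markers with no read in any library and, for each called member, the 3 genes of highest Pearson r; any other gene carries a remark, and 1 item is not reported here. Pathway genes are counted at an adjusted p under 0.05, and those also past an absolute log2 fold change over 1 are given beside. Partner ratios used counts plus 0.5. A ratio of Hbs1l over Pelo was planned and left out because Pelo was at or under the floor, so 3 ratios were adjusted together. Exon overlap and GC content came from GENCODE M21 (GRCm38), where 98.3% of the IDs found had the same position. Libraries were not duplicates of each other (chi-square per degree of freedom of 6.37 or more for every pair). Alternatives were run in edgeR, limma 3.58.1 and DESeq2 1.42.0.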

Additional observations from a re-analysis of the deposited data

How the results depend on the processing

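Nemf was called higher in all 19 alternative fits, and no member was called lower in any. Only 1 member, Nemf, was called with upper-quartile scaling, library totals alone, a minimum of 10 reads per library, a GC content offset, and a replicate block alone or with a gene length or GC content offset. Leaving out single libraries gave 1 to 2 members called higher, and 1 in the absence of any control library or of Eef1g-cKO replicate 1. The GC content offsets and transcript length were chosen after seeing the data. Replicate numbers did not pair the libraries (r of same-numbered deviations -0.05 to 0.02). With the replicate block Ascc3 stood at 0.68 (edgeR adjusted p = 0.0658), and Eef1g at -0.69 (adjusted p = 0.0585). Eef1g also missed the threshold with no low-count filter (-0.64), a gene length offset (-0.55, with the block -0.56) and a GC content offset (-0.43, with the block -0.44). Without single libraries its log2 fold change ranged from -0.75 to -0.56, and the call was lost without any control (adjusted p = 0.11, 0.121 and 0.0919 for replicates 1, 2 and 3) or Eef1g-cKO replicate 1 (0.0837). Of the other pathway genes 2 were called lower with that minimum of reads (Rack1 and Trip4) and 2 with limma-voom (Trip4 and Ufc1). Without single libraries 0 to 2 were called lower (2, Rack1 and Trip4, without Eef1g-cKO replicate 2) and 0 to 1 higher (Etf1, without Eef1g-cKO replicate 3). The median of tested members was 0.29 with that minimum of reads, where 5 members were tested. Without single libraries it ranged from -0.52 to 0.26, but the set of tested members also changed. It was 0.26 without control replicate 2, where 7 members were tested in place of 8. It was -0.52 without Eef1g-cKO replicate 2, where 9 were tested, so these medians do not cover the same genes. Over all genes 1176 were called as reported and 764 with the replicate block and a GC content offset, 623, 613 and 622 without control replicates 1, 2 and 3. Read depth leaves changes of Gtpbp1, Ankzf1, Gcn1 and Pelo undetectable unless they are large.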
